A study of Mus musculus with 28 samples.

Results

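The phase II conjugation enzymes described here were 60 of the 23712 genes that have a row in the deposited tables. They were taken by symbol alone, as every gene whose name begins with Ugt1a, Ugt2, Sult and a digit, or Gsta, Gstm, Gstt, Gstp, Gstk or Gsto and a digit. The rule gave 21 glutathione S-transferases, 21 sulfotransferases and 18 UDP-glucuronosyltransferases. Gstz1 lies outside the rule and appears only among the pathway genes at the end. Of the 60 members, 54 passed the filter on low counts, among 16499 genes tested in all. The 6 that did not pass were Gstt4, Sult1c1, Sult2a6, Sult6b2, Ugt2a1 and Ugt2a2. Sult1c1 had no count in any of the 28 libraries, and the highest group mean among the other untested members was 0.246 CPM (the counts-per-million scale, with TMM-scaled library sizes), of Ugt2a1 in hepatocytes.

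RNA sequencing was done on 28 libraries of C57BL/6 mouse cells in 9 groups. The iHep groups, induced hepatocyte-like cells, were made from embryonic fibroblasts with retroviruses carrying Hnf4a and 1 Foxa factor and were then maintained in culture: iHep_Foxa1 (n = 6), iHep_Foxa2 (n = 4) and iHep_Foxa3 (n = 6). Hep (n = 2) were hepatocytes isolated with collagenase from livers of adult mice 10 weeks old. 48h_Foxa3del2 (n = 2) received Hnf4a and a Foxa3 mutant called del2, whose missing residues the labels do not state; the titles say 48 h, while the stage label says iHep. 48h_Foxa1, 48h_Foxa2 and 48h_Foxa3 (n = 2 each) were fibroblasts sampled 48 h after receiving Hnf4a and the named full-length Foxa factor, with the same pGCDNsam viral backbone. MEF (n = 2) were the starting fibroblasts, from embryos 13.5 days post coitum. No library with empty virus or with Hnf4a alone was among the 28, so delivery of a virus and delivery of the factors cannot be told apart against MEF. The labels do not say whether libraries of a group came from separate cultures or embryos, so p-values measure the spread between these libraries, which may be technical.

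Conjugating enzymes attach a water-soluble group to drugs, hormones and reactive by-products of metabolism so that they can be exported in bile or urine. Glutathione S-transferases use the tripeptide glutathione, sulfotransferases use the activated sulfate donor PAPS, and UDP-glucuronosyltransferases use UDP-glucuronic acid. Adult hepatocytes are the main site of all of these reactions, and glutathione S-transferases are also made by many other cell types.

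Assigned reads per library numbered 17996416 to 31216564 in iHep, 14592820 to 15658619 in Hep, 34069974 to 51743266 in the 48 h groups, and 22039143 to 22178268 in MEF. A count of 0 in a whole group allows a level of up to 0.0171 to 0.0254 CPM in the iHep groups, 0.185 CPM in Hep and 0.0716 CPM in MEF; these floors are 3 counts over the group and cover counting error only, and folds against them use counts pooled over the libraries of the other group. The libraries fell into 2 sets by Rn7sk, a small nuclear RNA without a poly(A) tail: 14 held 17.2 to 72.5 CPM of it (all 6 libraries with full-length factors at 48 h, iHep_Foxa1 replicates 4 to 6 and iHep_Foxa3 replicates 2 to 6), and the other 14 held 0 to 5.98 CPM. The comparisons of 48 h cells with MEF, of iHep_Foxa2 with 48h_Foxa2 and of del2 with 48h_Foxa3 set one of these sets against the other, so library set and condition cannot be told apart there except through the iHep groups that span both. Summed over 8 hepatocyte markers, the level was 2240 to 29600 CPM in iHep, 197000 to 218000 CPM in Hep and 12.8 to 16.4 CPM in MEF. Apoa1 held most of the iHep sum, at 1830 to 28200 CPM in iHep, against 5780 to 7050 CPM in Hep. Ttr had 0 to 43.9 CPM in iHep, against 4900 to 5800 CPM in Hep, Cyp2e1 0.18 to 2.61 CPM, against 5280 to 6240 CPM, and Cps1 0 to 3.44 CPM, against 7060 to 10400 CPM. Summed over 7 intestinal markers the level was 64.7 to 4070 CPM in iHep, 109 to 113 CPM in Hep and 4.38 to 5.65 CPM in MEF. In Hep, Fabp2 had 85.6 to 93.5 CPM and Lgals4 19.6 to 23.5 CPM, while Vil1 had at most 0.245 CPM and Cdx2 no count. In iHep, Cdx2 had 11.0 to 170 CPM and Vil1 14.7 to 962 CPM, while Fabp2 had at most 0.502 CPM. Over 4 cholangiocyte markers the summed level was 424 to 3940 CPM in iHep, 6.48 to 8.08 CPM in Hep and 33.5 to 69.7 CPM in MEF. The part of these cells in the results below was not tested. In bulk RNA, fewer cells that express a gene and less of its RNA per cell cannot be told apart.

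Near-identical genes share reads. Over 149 genes with a pair of near-equal transcripts, the deposited expected counts put a median of 50.2% on the first of the pair, so shared reads were split evenly. The 8 Ugt1a genes share their last exons, with 58.2% to 100% of their 50-base windows found in another gene, and are therefore given mainly as a summed locus. Of the windows of Gsta1, 89.7% also occur in Gsta2, Gm3776 or Gm10639, and 62.3% of those of Gstp1 occur in Gstp2 or its pseudogene. Gsta3, Gsta4, Gsto1, Gstk1 and Gstt1 shared none.

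Most tested members were higher in adult hepatocytes than in the iHep cells, and a few were higher in the iHep cells. Against MEF, 48 of 54 tested members were higher in Hep and 2 lower, where 56.9% of all genes were called (24.3% higher and 32.6% lower; edgeR's quasi-likelihood test, Benjamini-Hochberg adjusted p under 0.05). Of the 54, 19 stayed under 1 CPM in each library outside Hep, and all of these but Sult6b1 had most of their reads in Hep. Passing the filter through Hep favours calls of Hep over the other groups. The counts and medians against Hep lean that way, and all genes are not a like background for them. Against MEF, 15 members were higher and 0 lower in iHep_Foxa1, 13 and 1 in iHep_Foxa2, and 13 and 3 in iHep_Foxa3. The background of all genes called was 39.9%, 30.7% and 46.6% for those comparisons. Of all genes, 20.0%, 15.3% and 22.9% were called higher and 19.9%, 15.5% and 23.7% lower. With both directions counted together, members called made up a smaller share than all genes called. Those called higher made up a larger share, only just so in iHep_Foxa3. Both shares count the 19 members with little to compare between iHep and MEF. Without MEF replicate 2 the counts of members called were 8, 7 and 9, and without MEF replicate 1 iHep_Foxa2 had 7. At an unadjusted p under 0.05, 19, 15 and 19 members passed. Against Hep, 5 members were higher and 44 lower in iHep_Foxa1, 6 and 44 in iHep_Foxa2, and 6 and 46 in iHep_Foxa3. There 60.1%, 60.6% and 61.9% of all genes were called, with 35.3%, 35.2% and 35.3% higher and 24.8%, 25.4% and 26.7% lower. The median log2 fold change of the tested members against Hep was -6.47, -5.92 and -8.19 in iHep_Foxa1, iHep_Foxa2 and iHep_Foxa3, beside medians of 0.42, 0.42 and 0.39 over all genes. With members that had no count in a group set at their bound, those medians were -6.35, -5.81 and -7.47. DESeq2 size factors in place of TMM lowered the median of all genes against Hep to 0.21, 0.17 and 0.16.

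**Figure D1:**
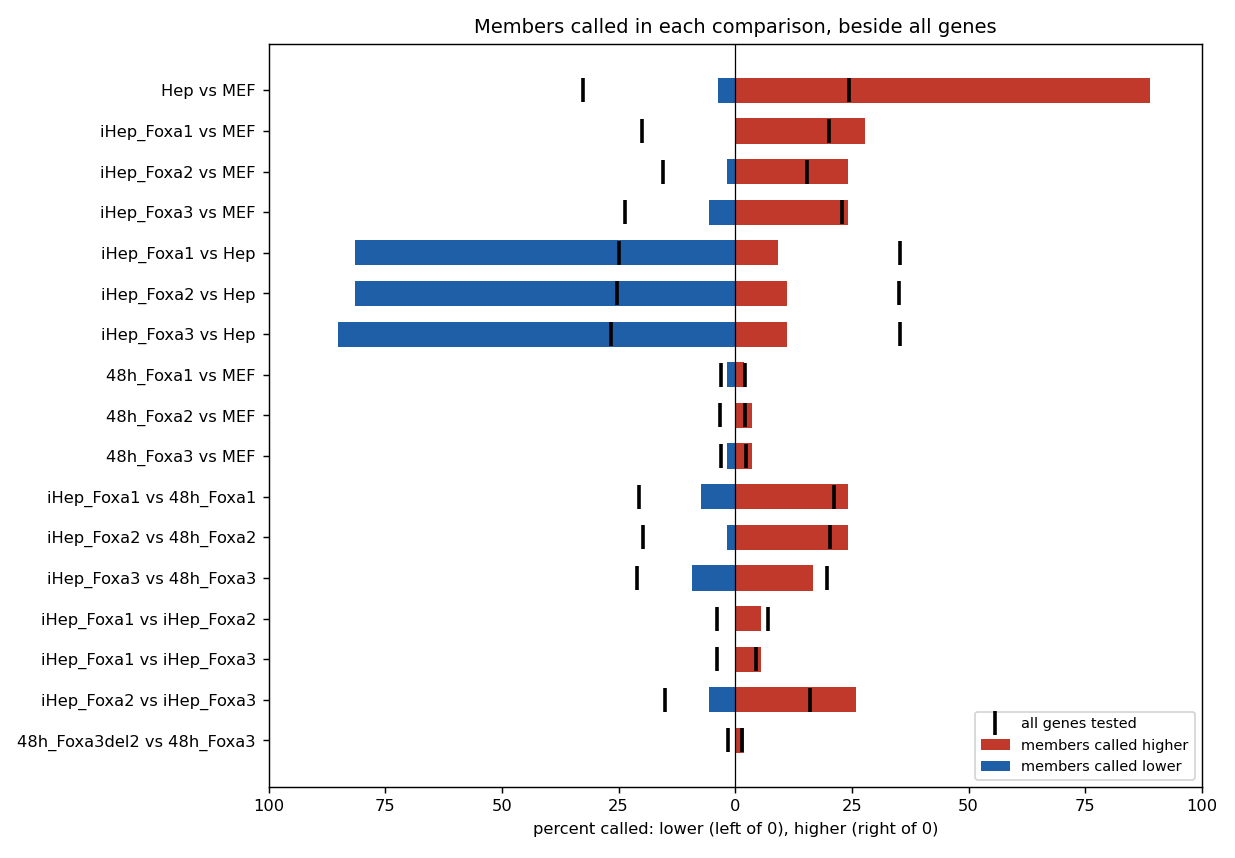
Percent of the 54 tested members called higher (red, right of 0) or lower (blue, left of 0) in each of 17 comparisons, the first-named group over the second, with black ticks at the percent of all 16499 tested genes. Members called lower reach far beyond the tick in the 3 comparisons of iHep with Hep, and members called higher do so in Hep against MEF. Passing the filter through Hep favours these calls, so the ticks are not a like background there.

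The same MEF libraries and the same Hep libraries served all 3 iHep groups, so calls in these groups are not independent of each other. With all libraries in the fit, each iHep group had Gsta1, Gsta2, Gsta4, Gstk1, Gstm1, Gsto1, Gstp1, Gstp2, Sult1a1, Sult1b1 and Sult2b1 called higher than MEF, and Gsta1, Gsta4, Gsto1, Sult2b1 and Sult4a1 called higher than Hep. In Hep, 47 members reached a mean of 5 CPM, and 16 of these stayed under 1 CPM in each library outside Hep.

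**Figure D2:**
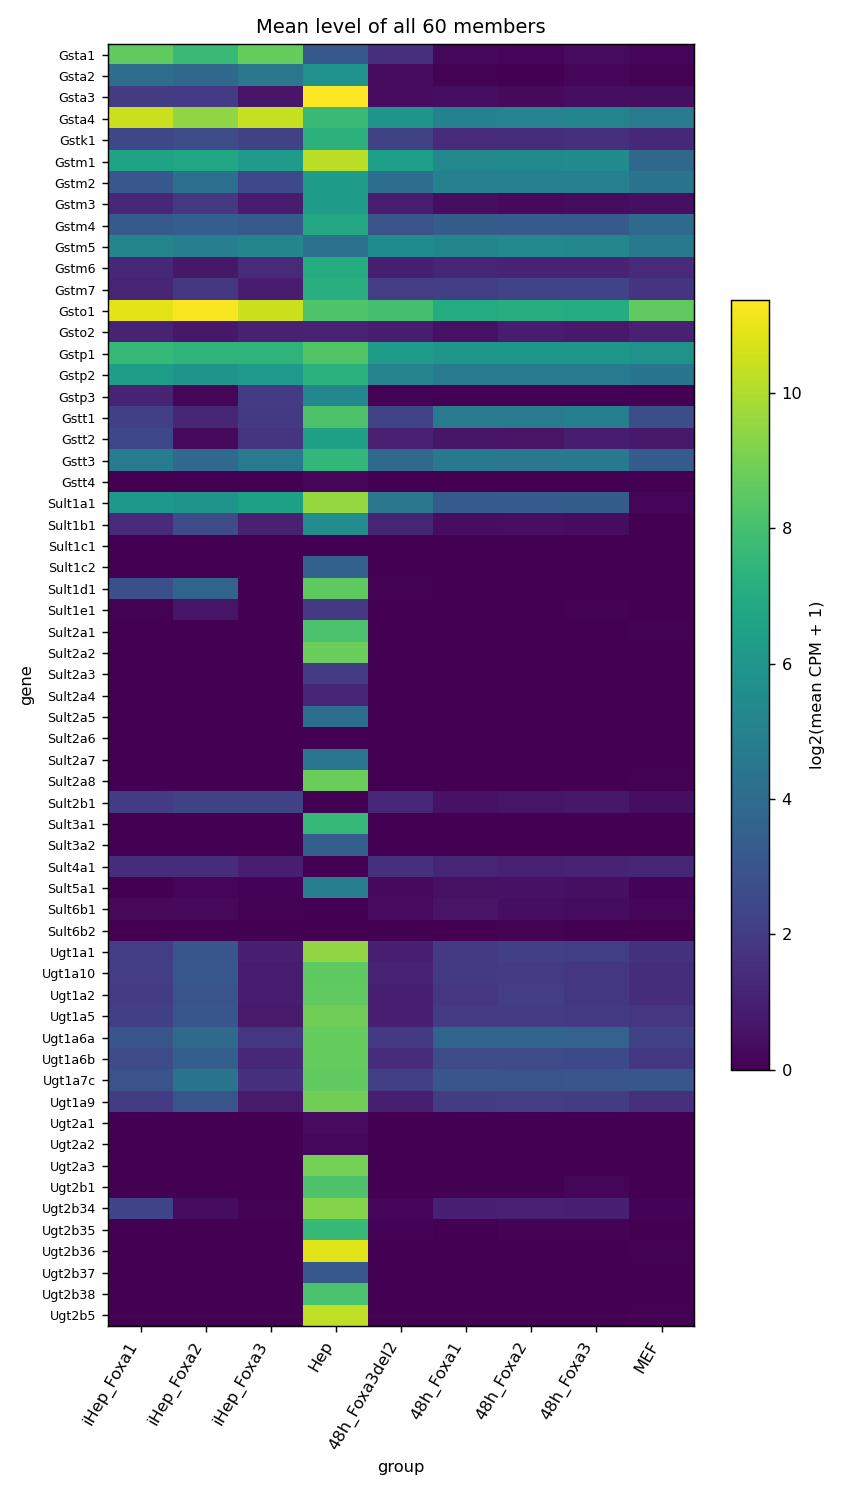
Group means of all 60 members as log2(mean CPM + 1), with the groups as columns and the genes as rows in order of family. Most Ugt2, Sult2a and Sult3a genes are bright in the Hep column and dark elsewhere, while Gsta1, Gsta4 and Gsto1 are brightest in the iHep columns.

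The alpha class of glutathione S-transferases split in opposite directions in iHep. Gsta4, which conjugates the lipid peroxidation product 4-hydroxynonenal, had 693 to 1790 CPM in iHep_Foxa1 (median 1470), 404 to 1010 CPM in iHep_Foxa2 and 1150 to 1510 CPM in iHep_Foxa3 (median 1320), against 245 and 165 CPM in Hep and 27.0 and 22.7 CPM in MEF. Every iHep library lay above both Hep libraries, and both Hep libraries lay above MEF. The log2 fold change over Hep was 2.77 ± 0.38 (SE; adjusted p = 2e-06), 1.80 ± 0.37 (adjusted p = 0.00025) and 2.70 ± 0.38 (adjusted p = 2.4e-06) for iHep_Foxa1, iHep_Foxa2 and iHep_Foxa3 in edgeR's test. Over MEF it was 5.81 ± 0.46, 4.84 ± 0.45 and 5.74 ± 0.46.

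Gsta1, an alpha-class enzyme that conjugates electrophiles and reduces organic peroxides, had 237 to 594 CPM in iHep_Foxa1 (median 388), 363, 179, 188 and 102 CPM in iHep_Foxa2 and 355 to 550 CPM in iHep_Foxa3 (median 387). It had 8.94 and 6.85 CPM in Hep and 0.239 and 0.0476 CPM in MEF. The groups did not overlap. Its log2 fold change over Hep was 5.63 ± 0.58 in iHep_Foxa1 (adjusted p = 2.8e-08), 4.72 ± 0.56 in iHep_Foxa2 (adjusted p = 2.5e-07) and 5.70 ± 0.58 in iHep_Foxa3 (adjusted p = 2.3e-08; edgeR). The reads shared with Gsta2, Gm3776 and Gm10639 matter for the size of this difference. Summed over the 4 copies, the level was 486 to 1250 CPM in iHep_Foxa1, 209 to 774 CPM in iHep_Foxa2 and 782 to 1110 CPM in iHep_Foxa3, against 87.9 and 92.5 CPM in Hep and 0.862 and 0.0952 CPM in MEF. The sum stayed higher in iHep, with log2 fold changes over Hep of 3.18 ± 0.52, 2.30 ± 0.50 and 3.29 ± 0.52 (adjusted p = 1.7e-05, 0.00047 and 1.1e-05; edgeR). This sum was added after the values had been seen.

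The other alpha-class members went the other way relative to hepatocytes. Gsta3, which in the mouse detoxifies the epoxide of aflatoxin, had at most 8.73 CPM in iHep_Foxa1 (median 1.08), 2.88, 0.258, 0.472 and 8.00 CPM in iHep_Foxa2 and at most 1.64 CPM in iHep_Foxa3 (median 0.481), against 2760 and 2540 CPM in Hep and 0.287 and 0.381 CPM in MEF. Some iHep libraries lay within the MEF range or below it, and none came near Hep; the log2 fold change over Hep was -9.79 ± 1.09, -9.84 ± 1.31 and -12.08 ± 1.18. No iHep group was called against MEF for Gsta3. Gsta2 stood between, with 10.0 to 25.3 CPM in iHep_Foxa1, 5.21 to 24.3 CPM in iHep_Foxa2 and 12.1 to 27.2 CPM in iHep_Foxa3, against 53.4 and 59.7 CPM in Hep and 0.0958 and 0 CPM in MEF. It was called lower than in Hep (-1.86 ± 0.40, -2.13 ± 0.44 and -1.40 ± 0.40) and higher than in MEF in all 3 iHep groups, but much of its sequence is shared with Gsta1.

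Gsto1, an omega-class enzyme that reduces dehydroascorbate and acts as a thioltransferase, had 1210 to 3110 CPM in iHep_Foxa1 (median 1880), 2120, 4290, 1810 and 1530 CPM in iHep_Foxa2 and 867 to 2080 CPM in iHep_Foxa3 (median 1460). Hep had 271 and 334 CPM and MEF 330 and 447 CPM, so those groups overlapped and every iHep library lay above both. Its log2 fold change over Hep was 2.67 ± 0.44, 3.01 ± 0.46 and 2.25 ± 0.43, and over MEF 2.30 ± 0.43, 2.65 ± 0.45 and 1.89 ± 0.42 (adjusted p at most 0.00088 in these 6 tests; edgeR). Gsto2, the other omega member, was not called in Hep or in any iHep group against either reference, with group means near 1 CPM or below. Gsta1, Gsta4 and Gsto1 kept their calls over MEF, Hep and 48 h cells when library set was a term in the fit and in each set that could be tested alone.

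**Figure D3:**
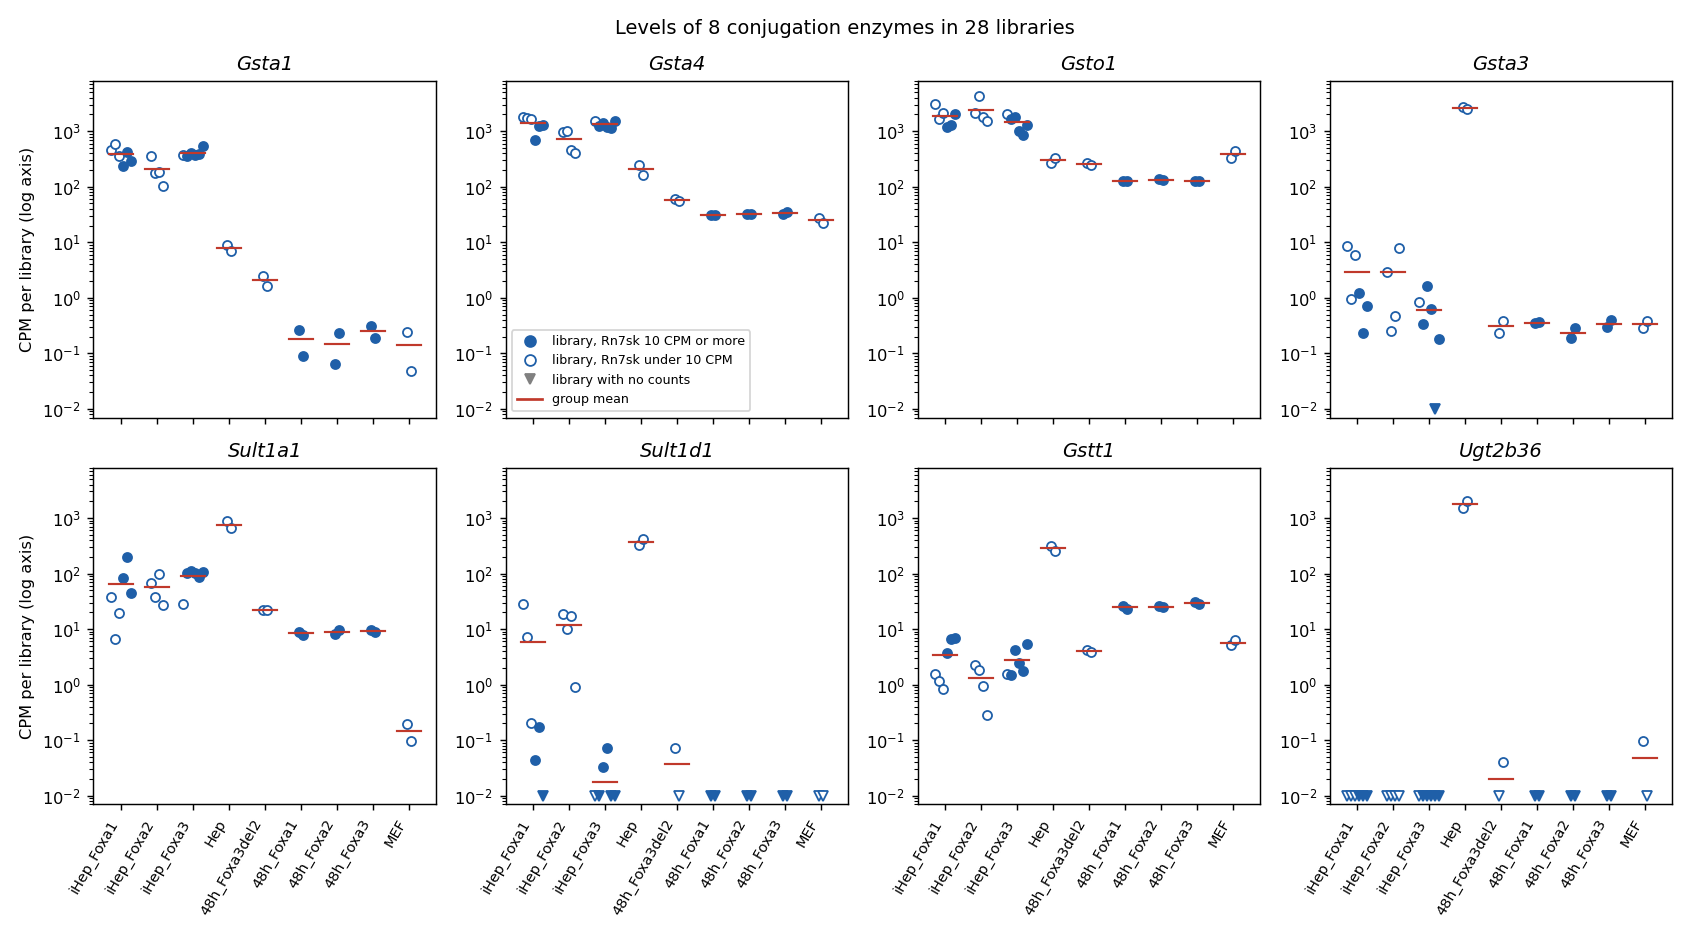
CPM of 8 members on a log axis in each of the 28 libraries, by group; filled circles are libraries with at least 10 CPM of Rn7sk, open circles the others, triangles at the bottom libraries without a count, and red bars group means. Gsta1, Gsta4 and Gsto1 stand above Hep in each iHep library, whereas Gsta3 and Ugt2b36 are high in Hep only.

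Of the mu class, Gstm1, its most abundant member in hepatocytes, moved part of the way. Gstm3 was also called higher than in MEF in iHep_Foxa1 and iHep_Foxa2, at means of 1.49 and 2.75 CPM against 0.382 CPM. Both Gstm3 calls were lost without MEF replicate 1. No other mu member was called higher than in MEF in any iHep group. Gstm1, which conjugates a broad range of epoxides, had 71.5 to 136 CPM in iHep_Foxa1 (median 89.8), 173, 32.7, 138 and 88.0 CPM in iHep_Foxa2 and 51.4 to 120 CPM in iHep_Foxa3 (median 72.6), against 1240 and 1080 CPM in Hep and 13.2 and 12.5 CPM in MEF. Each iHep library lay between MEF and Hep. The log2 fold change over MEF was 2.89 ± 0.47, 3.07 ± 0.49 and 2.60 ± 0.46, and that over Hep -3.61 ± 0.35, -3.42 ± 0.40 and -3.90 ± 0.35. Of the 7 mu members, 6 were lower than in Hep in each iHep group. The exception, Gstm5, had 23.3 to 56.9 CPM in iHep_Foxa1, 15.8 to 44.6 CPM in iHep_Foxa2 and 13.9 to 42.4 CPM in iHep_Foxa3, against 18.7 and 17.3 CPM in Hep, and its call in iHep_Foxa3 (0.97 ± 0.41, adjusted p = 0.046) was lost without any of 7 single libraries (adjusted p 0.057 to 0.2). In iHep_Foxa3, Gstm2 and Gstm7 were lower than in MEF, at 1.96 to 6.67 CPM against 15.0 and 24.7 CPM for Gstm2 (-2.09 ± 0.60, adjusted p = 0.007) and 0.324 to 1.36 CPM against 2.63 and 2.00 CPM for Gstm7 (-1.50 ± 0.53, adjusted p = 0.024). Both calls were lost without single libraries, at an adjusted p of 0.12 for Gstm2 and 0.067 to 0.17 for Gstm7.

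Of the pi class, Gstp1 and Gstp2 were called higher than in MEF in each iHep group and Gstp3 stayed far below hepatocytes. Gstp1, which conjugates electrophiles and is the pi enzyme of most tissues, had 135 to 389 CPM in iHep_Foxa1 (median 158), 295, 110, 148 and 127 CPM in iHep_Foxa2 and 117 to 246 CPM in iHep_Foxa3 (median 157), against 247 and 376 CPM in Hep and 56.9 and 53.2 CPM in MEF. All iHep libraries lay above MEF, and iHep_Foxa1 and iHep_Foxa2 overlapped Hep. The log2 fold change over MEF was 1.81 ± 0.41, 1.63 ± 0.42 and 1.59 ± 0.41 (adjusted p = 0.0014, 0.0054 and 0.0029; edgeR). Without 1 of 2 libraries the iHep_Foxa2 call was lost (adjusted p 0.06 to 0.077). Against Hep only iHep_Foxa3 was called (-0.90 ± 0.35, adjusted p = 0.03), and that call was lost without any of 3 libraries (adjusted p 0.053 to 0.33) and turned to 0.05 in limma's test of FPKM (adjusted p = 0.91). Gstp2, its near-identical neighbour, had 49.1 to 184 CPM in iHep_Foxa1, 38.1 to 105 CPM in iHep_Foxa2 and 44.9 to 99.4 CPM in iHep_Foxa3, against 93.2 and 211 CPM in Hep and 22.5 and 18.6 CPM in MEF. Its calls over MEF were lost without MEF replicate 2 in iHep_Foxa1 and iHep_Foxa3 (adjusted p = 0.057 and 0.079) and without any of 3 libraries in iHep_Foxa2 (adjusted p 0.092 to 0.21). Gstp3 had 0.258 to 2.79 CPM in iHep_Foxa1, 0 to 0.256 CPM in iHep_Foxa2 and 0.689 to 6.16 CPM in iHep_Foxa3, against 44.7 and 31.1 CPM in Hep and no count in MEF; it was at least 16.1-fold higher than the MEF floor in iHep_Foxa1 and at least 42.3-fold higher in iHep_Foxa3.

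The theta and kappa classes stayed far below hepatocytes. Gstt1, which acts on small halogenated compounds, had 0.824 to 6.78 CPM in iHep_Foxa1 (median 2.62), 2.23, 1.87, 0.945 and 0.286 CPM in iHep_Foxa2 and 1.48 to 5.30 CPM in iHep_Foxa3 (median 2.08), against 318 and 258 CPM in Hep and 5.17 and 6.28 CPM in MEF. Against MEF it was lower in iHep_Foxa2 (-2.10 ± 0.69, adjusted p = 0.024), a call lost without any of 4 libraries (adjusted p 0.056 to 0.12). Gstk1, found in mitochondria and peroxisomes, had 1.57 to 7.40 CPM in iHep_Foxa1, 3.80 to 7.18 CPM in iHep_Foxa2 and 1.07 to 6.78 CPM in iHep_Foxa3, against 164 and 155 CPM in Hep and 1.15 and 1.62 CPM in MEF. Its rise over MEF (1.64, 1.94 and 1.35 on the log2 scale) was lost without single libraries in each group (adjusted p 0.052 to 0.26), and its fall against Hep (-5.21, -4.91 and -5.49) was not. Gstt3 had 6.28 to 53.4 CPM in iHep_Foxa1, 8.82 to 21.1 CPM in iHep_Foxa2 and 15.6 to 34.3 CPM in iHep_Foxa3, against 186 and 182 CPM in Hep and 10.3 and 7.33 CPM in MEF. Gstt2 had 0 to 17.7 CPM in iHep_Foxa1, 0.0714 to 0.419 CPM in iHep_Foxa2 and 0.199 to 5.80 CPM in iHep_Foxa3, against 92.8 and 85.2 CPM in Hep.

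Added per length as deposited FPKM, which carry no TMM scaling, glutathione S-transferase transcripts had another makeup in iHep than in hepatocytes. The scales differ between groups. Gsta4 had 132 and 93.3 FPKM in Hep beside 245 and 165 CPM, but 1910 FPKM in iHep_Foxa1 replicate 1 beside 1790 CPM. Which of Hep and iHep held more of the class cannot be told from the FPKM sums. The class sum was 4200 ± 1080 FPKM in iHep_Foxa1 (SD, n = 6), 3720 ± 1300 FPKM in iHep_Foxa2 (n = 4) and 3740 ± 620 FPKM in iHep_Foxa3 (n = 6), against 2700 ± 47.8 FPKM in Hep and 511 ± 78.7 FPKM in MEF (n = 2 each). Single iHep libraries ranged from 2440 to 5700 FPKM and so reached below the Hep libraries, at 2660 and 2730 FPKM; the sums were not tested. Gsto1 made up 39.8%, 58.1% and 34.2% of the sum in iHep_Foxa1, iHep_Foxa2 and iHep_Foxa3, against 5.17% in Hep and 61.7% in MEF. Gsta4 made up 35.0%, 20.3% and 38.8% in the same iHep groups. In Hep, Gsta3 made up 37.5% of the sum and Gstm1 17.6%, with Gstp1 at 8.33% and Gstt1 at 5.44%.

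**Figure D4:**
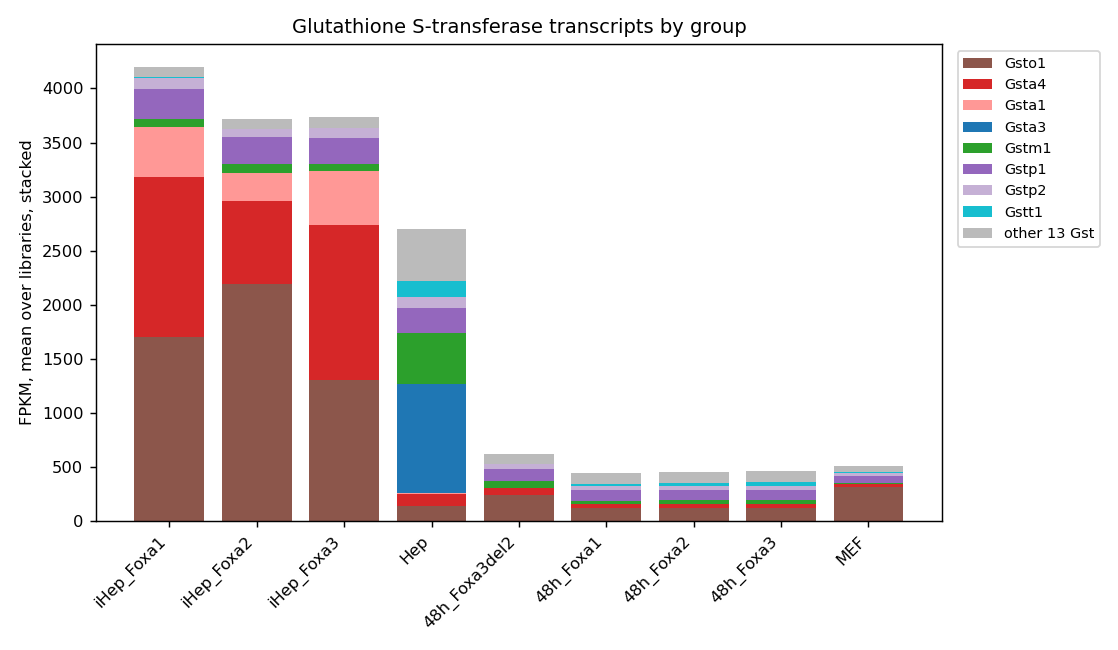
Mean FPKM over libraries of the glutathione S-transferase genes, stacked by gene for each group. The iHep columns consist mostly of Gsto1, Gsta4 and Gsta1, the Hep column mostly of Gsta3, Gstm1 and smaller contributors, and the MEF and 48 h columns stay near 500 FPKM.

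Among sulfotransferases the hepatocyte repertoire was almost wholly missing from iHep, with Sult1a1 as the main exception. Sult1a1, which sulfates phenols, had 6.59 to 199 CPM in iHep_Foxa1 (median 41.5), 66.4, 37.5, 99.5 and 27.4 CPM in iHep_Foxa2 and 28 to 110 CPM in iHep_Foxa3 (median 101), against 869 and 652 CPM in Hep and 0.192 and 0.0952 CPM in MEF. Each iHep library lay above MEF and below Hep. The log2 fold change was 8.79 ± 1.34, 8.61 ± 1.35 and 9.23 ± 1.36 over MEF, and -3.55 ± 0.66, -3.72 ± 0.75 and -3.10 ± 0.66 over Hep (adjusted p = 7.5e-05, 0.00021 and 0.0003; edgeR). Within iHep_Foxa1, the 3 libraries high in Rn7sk averaged 109 CPM of Sult1a1 and the other 3 averaged 21.3 CPM. Sult1a1 made up 78.4%, 77.7% and 93.0% of the summed sulfotransferase FPKM in iHep_Foxa1, iHep_Foxa2 and iHep_Foxa3, against 25.7% in Hep, where Sult2a2 held 29.0%. The class sum was 52.2 ± 47.1, 54.0 ± 25.7 and 68.7 ± 22.9 FPKM in the same iHep groups, against 1090 ± 0.693 FPKM in Hep and 1.06 ± 0.148 FPKM in MEF.

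The Sult2a genes, which sulfate hydroxysteroids and bile acids, gave no count in any of the 16 iHep libraries for Sult2a1, Sult2a2 and Sult2a8. Hep had 331 and 229 CPM of Sult2a1, 406 and 469 CPM of Sult2a2, and 396 and 512 CPM of Sult2a8. Against the iHep floors, Sult2a2 was at least 20700-fold lower in iHep_Foxa1, 17200-fold lower in iHep_Foxa2 and 25600-fold lower in iHep_Foxa3. Sult3a1, which sulfates amines, likewise had no iHep count beside 191 and 187 CPM in Hep, at least 7450-fold lower in each iHep group. Sult1d1, a catecholamine sulfotransferase of the mouse, was uneven: 28, 7.06, 0.206, 0.0435, 0.171 and 0 CPM in iHep_Foxa1, 18.8, 9.83, 17.4 and 0.893 CPM in iHep_Foxa2, and at most 0.0726 CPM in iHep_Foxa3, against 332 and 412 CPM in Hep and no count in MEF. Its level in iHep_Foxa1 lay mainly in replicates 1 and 2. Its calls over MEF in iHep_Foxa1 and iHep_Foxa2 ended without any of 4 or 3 single libraries (adjusted p 0.052 to 0.19). Sult1b1, which sulfates thyroid hormones and phenols, had 0.0837 to 7.46 CPM in iHep_Foxa1, 0.750 to 12.4 CPM in iHep_Foxa2 and 0.289 to 1.76 CPM in iHep_Foxa3, against 54.5 and 40.1 CPM in Hep and no count in MEF. Each of its 3 calls over MEF was lost without either MEF library (adjusted p 0.068 to 0.13).

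Sulfotransferases that hepatocytes lacked were present at low levels in iHep. Sult2b1, which sulfates cholesterol, had 0.979 to 5.52 CPM in iHep_Foxa1 (median 2.96), 4.05, 8.15, 1.35 and 0.964 CPM in iHep_Foxa2 and 1.55 to 7.17 CPM in iHep_Foxa3 (median 3.05), against no count in Hep and 0.383 and 0.333 CPM in MEF. Relative to the Hep floor it was at least 15.2-, 19.8- and 19.3-fold higher in iHep_Foxa1, iHep_Foxa2 and iHep_Foxa3. Its log2 fold change over MEF was 2.99 ± 0.86, 3.33 ± 0.90 and 3.30 ± 0.88, and each of those calls was lost without 1 or 2 single libraries (adjusted p 0.057 to 0.09). Sult4a1, a member best known from brain with no settled substrate, had 0.261 to 4.31 CPM in iHep_Foxa1, 0.893 to 2.77 CPM in iHep_Foxa2 and 0.144 to 3.67 CPM in iHep_Foxa3, against no count in Hep and 1.58 and 0.999 CPM in MEF. Its call over Hep was lost in iHep_Foxa1 without Hep replicate 1 and in iHep_Foxa3 without either Hep library. No iHep group was called against MEF for Sult4a1. Sult2b1 and Sult4a1 were the 2 members called lower in Hep than in MEF. Without either Hep library neither was called, and Sult2b1 also lost its call without MEF replicate 1 (adjusted p 0.059 to 0.11 for Sult2b1 and 0.074 for Sult4a1).

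UDP-glucuronosyltransferases of the Ugt2 family were far below hepatocyte levels in iHep. Ugt2b36, a Ugt2b enzyme of the kind that acts on steroids and drugs, had no count in the 16 iHep libraries, against 1530 and 2060 CPM in Hep and 0.0958 and 0 CPM in MEF. That made it at least 84700-, 70700- and 105000-fold lower than Hep in iHep_Foxa1, iHep_Foxa2 and iHep_Foxa3. Ugt2b5 had at most 0.0392 CPM in any iHep library, against 1240 and 1270 CPM in Hep. Ugt2a3 had no iHep count, against 560 and 472 CPM in Hep, and Ugt2b38 none, against 279 and 275 CPM; Ugt2b1 had at most 0.0784 CPM, against 291 and 300 CPM. All 8 tested Ugt2 genes were lower than in Hep in each iHep group. The exception in level was Ugt2b34, with 3.47, 21.3, 0.206, 0, 0 and 0.209 CPM in iHep_Foxa1, 0 to 1.13 CPM in iHep_Foxa2 and 0 to 0.298 CPM in iHep_Foxa3, against 613 and 614 CPM in Hep and 0.0479 and 0.143 CPM in MEF. No Ugt2 gene was called higher than in MEF. Ugt2b5 counted among the members lower than MEF in iHep_Foxa3, but it rested on reads in 1 MEF library (0.0952 CPM) and the fold change was 0.00 without that library.

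The Ugt1a locus, which encodes the bilirubin enzyme Ugt1a1 and the phenol enzymes Ugt1a6a and Ugt1a6b from alternative first exons, was also low. Summed over its 8 genes, it had 61.2, 12.6, 120, 11, 2.33 and 3.85 CPM in iHep_Foxa1, 35.4, 50.8, 84.5 and 147 CPM in iHep_Foxa2 and 3.64, 7.13, 8.68, 25.4, 13.6 and 3.64 CPM in iHep_Foxa3, against 3500 and 3800 CPM in Hep and 24.1 and 23.6 CPM in MEF. All iHep libraries lay below Hep, and the iHep_Foxa1 and iHep_Foxa3 libraries fell on both sides of MEF. The log2 fold change over Hep was -6.70 ± 0.93, -5.52 ± 1.06 and -8.46 ± 0.99, and that over MEF, 0.56, 1.74 and -1.20, was not called (adjusted p = 0.68, 0.25 and 0.29; edgeR). Hep exceeded MEF by 7.26 ± 1.54 on the log2 scale (adjusted p = 0.00039). Together, UDP-glucuronosyltransferases reached 13.5 ± 16.2, 27.5 ± 17.7 and 3.59 ± 2.91 FPKM in iHep_Foxa1, iHep_Foxa2 and iHep_Foxa3, against 1910 ± 208 FPKM in Hep and 7.35 ± 0.0495 FPKM in MEF.

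**Figure D5:**
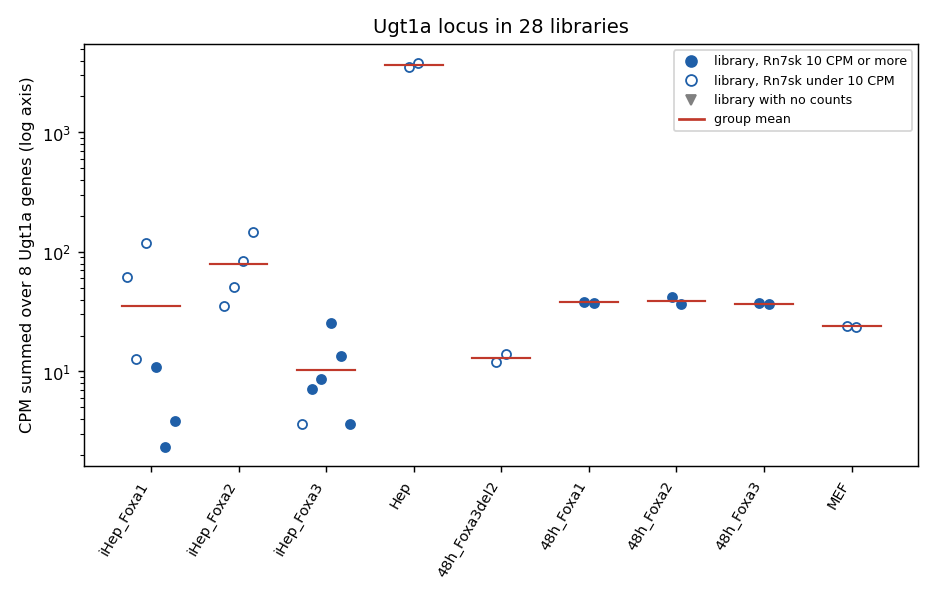
CPM summed over the 8 Ugt1a genes in each library, on a log axis, by group; filled circles are libraries with at least 10 CPM of Rn7sk, open circles the others, and red bars group means. Both Hep libraries stand near 3500 CPM or above, and within iHep_Foxa1 the 3 open circles stand above the filled ones.

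Promoters of some of these genes share letters. Promoter windows from RefSeq (build GRCm38.p6) were found for 53 of the 60 members, 63 windows in all, and the 250 bases before each start were searched on both strands for 4 motifs. The HNF1 motif, GTTAAT followed by any base and ATT, was in 8 of 63 member windows, 12.7%, and in 0.371% of all 32851 windows. Those 8 were Ugt1a1, Ugt1a9, Ugt1a10, Sult1d1, Sult2a3, Sult2a4, Sult2a5 and Sult2a6. All but Sult1d1 are related genes of the Ugt1a locus or the Sult2a cluster, so the windows are not independent. A link between matches and the level in Hep was not tested. Ugt1a1, Ugt1a9, Ugt1a10 and Sult1d1 averaged 720, 485, 378 and 372 CPM there. Sult2a6 had no count in Hep, and Sult2a3 and Sult2a4 averaged 3.01 and 1.23 CPM. Gsta4, Gstt2, Sult2a1, Sult2a2, Sult2a7, Sult4a1 and Ugt1a6b had no window and were not searched. Of these, Sult2a1 and Sult2a2 averaged 280 and 438 CPM in Hep. Ugt2b36, Ugt2b5 and Sult2a8 had no match, at means of 1800, 1260 and 454 CPM. The FOXA motif TGTTTAC was in 6.35% of member windows and 3.17% of all windows, and the antioxidant response motif TGACNNNGC in 4.76% and 10.2%. The HNF4 motif CAAAGTCCA was in none of the member windows and in 0.384% of all. No window held overlapping matches of different motifs. A match of letters is a description, not a binding site. The stretches below are the last 150 bases before the start of 3 genes with the HNF1 letters and of Gsta1. The HNF1 letters are in capitals, with the first base at -45, -79 and -28 from the start. In Hep these 3 genes averaged 720, 372 and 16.4 CPM. Gsta1, high in iHep, held none of the 4 motifs. The 4 stretches lie at chr1:88211809-88211958 on the plus strand, chr5:87569007-87569156 on the minus strand, chr7:13623817-13623966 on the plus strand and chr9:78230519-78230668 on the plus strand.
Ugt1a1: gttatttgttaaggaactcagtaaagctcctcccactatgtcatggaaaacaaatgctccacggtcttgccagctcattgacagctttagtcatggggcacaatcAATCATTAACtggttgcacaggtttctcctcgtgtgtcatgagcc
Sult1d1: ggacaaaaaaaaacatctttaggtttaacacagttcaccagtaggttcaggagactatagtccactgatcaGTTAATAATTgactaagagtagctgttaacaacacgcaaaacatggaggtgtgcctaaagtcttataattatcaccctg
Sult2a5: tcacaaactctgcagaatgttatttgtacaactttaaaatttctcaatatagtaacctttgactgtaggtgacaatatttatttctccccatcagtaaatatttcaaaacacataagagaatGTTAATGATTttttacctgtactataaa
Gsta1: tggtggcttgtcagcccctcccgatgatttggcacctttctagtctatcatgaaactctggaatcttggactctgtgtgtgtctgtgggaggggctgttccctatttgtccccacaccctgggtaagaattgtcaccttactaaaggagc

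Between iHep groups, the calls were 3 in each comparison with iHep_Foxa1 and 17 between iHep_Foxa2 and iHep_Foxa3. Against iHep_Foxa2, iHep_Foxa1 had 3 members higher and 0 lower, where 11.0% of all genes were called (7.1% higher and 3.87% lower), and 10 members passed at an unadjusted p under 0.05. The 3 were Gsta4 (0.97 ± 0.26, adjusted p = 0.025), Gstp3 (3.37 ± 0.83, adjusted p = 0.021) and Gstt2 (4.30 ± 1.32, adjusted p = 0.04; edgeR). None of these was called within the libraries low in Rn7sk, the only set both groups have, where the log2 fold changes were 1.27 (adjusted p = 0.28), 2.90 (adjusted p = 0.32) and -1.54 (adjusted p = 0.51). The direction of Gstt2 thus turned. Gstt2 had 0.155, 0, 0.0515, 4.48, 5.01 and 17.7 CPM in iHep_Foxa1, so its level lay in the 3 libraries high in Rn7sk. Without single libraries the 3 calls were lost at adjusted p values of 0.085 to 0.093 for Gsta4, 0.062 to 0.065 for Gstp3 and 0.062 to 0.12 for Gstt2.

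Against iHep_Foxa3, iHep_Foxa1 had Ugt1a5, Ugt2b34 and Sult1d1 higher and none lower, where 8.32% of all genes were called (4.41% higher and 3.92% lower) and 13 members passed at an unadjusted p under 0.05. Ugt1a5 differed by 2.10 ± 0.64 on the log2 scale (adjusted p = 0.045) and Ugt2b34 by 6.13 ± 1.45 (adjusted p = 0.014); Sult1d1 had an adjusted p of 0.013 against 3 counts in all of iHep_Foxa3 (edgeR). With a term for the library set none of the 3 was called (adjusted p = 0.46, 0.065 and 0.09). Without iHep_Foxa1 replicate 2, the library with 21.3 CPM, the Ugt2b34 difference was 3.83 (adjusted p = 0.069), and the Ugt1a5 call was lost without any of 7 libraries (adjusted p 0.053 to 0.17).

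In iHep_Foxa2 against iHep_Foxa3, 14 members were higher and 3 lower, where 31.1% of all genes were called (16.0% higher and 15.1% lower). Over all 54 tested members this share was near that of all genes. However, 19 of the 54 stayed under 1 CPM in each library outside Hep, and only Sult6b1 of these was called. The calls also count the Ugt1a locus, whose genes share reads, 8 times. The 3 lower ones were Gstp3 (-4.73 ± 0.86, adjusted p = 0.0012), Gsta1 (-0.98 ± 0.33, adjusted p = 0.028) and Gsta4 (-0.90 ± 0.26, adjusted p = 0.014). The 14 higher ones were all 8 Ugt1a genes (2.49 to 3.23, or 2.94 ± 0.77 for the summed locus, adjusted p = 0.0079), Gstm2, Gstm3 and Gstm7 (1.86, 1.71 and 1.58), Sult6b1 (2.02 ± 0.76, adjusted p = 0.047), Sult1e1 and Sult1d1 (edgeR). Sult1e1, the oestrogen sulfotransferase, had 0.657, 1.61, 0 and 0 CPM in iHep_Foxa2 and no count in iHep_Foxa3, at least 33.7-fold higher, and lost its call without iHep_Foxa2 replicate 2 (adjusted p = 0.063). iHep_Foxa2 holds libraries low in Rn7sk and iHep_Foxa3 mostly high ones. With a term for the library set only Gsta4 (-1.34, adjusted p = 0.015) and Gstp3 (-4.06, adjusted p = 0.02) were called, while Ugt1a1 differed by 0.97 (adjusted p = 0.59) and Gsta1 by -1.25 (adjusted p = 0.079). Without single libraries Gsta1 and Gsta4 lost their calls (adjusted p 0.058 to 0.099 and 0.055 to 0.056), as did Sult6b1 (0.06 to 0.13), Gstm2 (0.072) and Ugt1a6a (0.05 to 0.075).

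Libraries of iHep_Foxa1 also differed among themselves. Between its 3 libraries high and 3 low in Rn7sk, 15 members were called, a smaller share of those tested than the 33.9% of all genes. Gstt1, Gstt2, Gstt3 and Sult1a1 were higher in the first, by 2.26, 6.84, 1.87 and 2.35 on the log2 scale. Gsta3, Sult1d1, Ugt2b34 and the 8 Ugt1a genes were lower there, by -2.80, -7.46, -6.69 and -2.83 to -4.16. The Ugt1a genes share reads, so their calls count a single locus 8 times. Gsta1, Gsta4 and Gsto1 were not called, at -0.56 ± 0.37, -0.68 ± 0.28 and -0.61 ± 0.35.

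At 48 h the members called against MEF made up about the share of all genes called, over 54 tested members. Of those, 19 stayed under 1 CPM in each library outside Hep, which leaves little to call. In 48h_Foxa1, 1 member was higher and 1 lower, in 48h_Foxa2 2 and 0, and in 48h_Foxa3 2 and 1, where 5.25%, 5.48% and 5.21% of all genes were called. Of all genes, 2.13%, 2.2% and 2.22% were higher and 3.12%, 3.28% and 2.98% lower in those comparisons. With the compared groups fitted alone, 9, 10 and 9 members were called. Sult1a1 was higher in all 3, at 8.81 and 7.84 CPM in 48h_Foxa1, 8.23 and 9.55 CPM in 48h_Foxa2 and 9.72 and 8.73 CPM in 48h_Foxa3, against 0.192 and 0.0952 CPM in MEF. The groups were far apart, with log2 fold changes of 5.82 ± 1.31, 5.92 ± 1.32 and 5.97 ± 1.32 (adjusted p = 0.016, 0.014 and 0.015; edgeR). Gsto1 was lower in 48h_Foxa1, at 129 and 126 CPM (-1.61 ± 0.47, adjusted p = 0.047), and in 48h_Foxa3, at 128 and 129 CPM (-1.59 ± 0.47, adjusted p = 0.049), against 330 and 447 CPM in MEF. Gstm1 was higher in 48h_Foxa2, at 39.8 and 43.6 CPM (1.70 ± 0.49, adjusted p = 0.046), and in 48h_Foxa3, at 43.7 and 43.8 CPM (1.77 ± 0.49, adjusted p = 0.039), against 13.2 and 12.5 CPM in MEF. Each of these calls was lost without any 1 of the 4 libraries compared (adjusted p 0.09 to 0.29), and with a library set term Sult1a1 in 48h_Foxa3 alone was still called (3.81, adjusted p = 0.049).

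Between 48 h and iHep, members called in both directions together made up a smaller share than all genes called. Of the 54 tested members, 19 stayed under 1 CPM in each library outside Hep, which leaves little to call. Against their 48 h counterparts, 13 members were higher and 4 lower in iHep_Foxa1, 13 and 1 in iHep_Foxa2, and 9 and 5 in iHep_Foxa3, where 42.0%, 40.1% and 40.6% of all genes were called. Those called higher were 21.2%, 20.4% and 19.6% of all genes, and those called lower 20.7%, 19.7% and 21.0%. Gsta1, Gsta2, Gsta4, Gsto1, Gstp1, Gstp2, Gstp3, Sult1a1 and Sult2b1 were higher in all 3, 9 of the 13 higher in any; these comparisons share no libraries. Of these, Gsta1, Gsta2, Gsta4 and Gsto1 kept their calls in all 3 groups without any single library. Without single libraries, 48 h ones among them, Gstp1, Gstp2, Sult1a1 and Sult2b1 lost theirs in each group (adjusted p 0.051 to 0.24), and Gstp3 did so in iHep_Foxa2 (adjusted p 0.077 to 0.18). Without 1 or the other 48 h library the count of members called was 7 to 9 in iHep_Foxa1, 6 in iHep_Foxa2 and 8 to 9 in iHep_Foxa3. With a term for the library set all 9 were still called in iHep_Foxa2, whose set differs from that of 48h_Foxa2, and Sult1d1 was not (adjusted p = 0.42). Gsta1 had 0.0638 to 0.314 CPM over the 6 libraries with full-length factors at 48 h, below each iHep library, and differed by 11.10, 10.43 and 10.65 on the log2 scale. Gsta4 differed by 5.50, 4.47 and 5.30, and Gsto1 by 3.91 ± 0.48, 4.19 ± 0.50 and 3.49 ± 0.47. Gstt1 was lower in all 3 iHep groups, against 26.4 and 22.7 CPM in 48h_Foxa1, 26.1 and 24.8 CPM in 48h_Foxa2 and 30.2 and 28.1 CPM in 48h_Foxa3 (-2.85 ± 0.59, -4.25 ± 0.69 and -3.39 ± 0.59; adjusted p = 0.00058, 7.2e-05 and 8.4e-05; edgeR). Its level at 48 h was not called against MEF (2.10, 2.15 and 2.35, adjusted p = 0.13, 0.12 and 0.093). Gstt1 also differed with library set (1.76 on the log2 scale, adjusted p = 0.0023), and with that term its fall in iHep was -2.32, -2.49 and -3.13 (adjusted p = 0.00057, 0.0061 and 9.4e-06; edgeR). For none of the 16499 genes was a difference between factors in the change from 48 h to iHep called, by an interaction term in edgeR with 2 libraries in each 48 h group; 1, 1 and 7 members passed at an unadjusted p under 0.05 in the 3 contrasts.

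Cells with the del2 mutant differed from 48h_Foxa3 in 1 member, which was higher, where 2.98% of all genes were called (1.4% higher and 1.58% lower) and 5 members passed at an unadjusted p under 0.05. The count depended on the fit, with 25 members called when the compared groups were fitted alone and 8 with a term for the library set. Gsta1 had 2.46 and 1.66 CPM with del2, against 0.314 and 0.186 CPM with full-length Foxa3 (3.01 ± 0.60, adjusted p = 0.0073; edgeR). The groups did not overlap, the 4 copies summed gave 2.87 ± 0.58 (adjusted p = 0.0084), and the call was lost without any of 3 libraries (adjusted p 0.08 to 0.15). The level was below that of any iHep library. Of the hepatocyte markers, Apoa1 had 471 to 496 CPM with del2, against 1.06 to 3.03 CPM in the 48 h groups with full-length factors. Alb had 0 to 0.0911 CPM with del2, against 1.64 to 2.56 CPM. Ttr had no count with del2, 48h_Foxa2 or 48h_Foxa3, and at most 0.0267 CPM in 48h_Foxa1. Fibroblast markers summed to 7120 to 8570 CPM with del2, against 22900 to 25300 CPM in the 48 h groups with full-length factors.

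Genes that supply the donors of conjugation were called in both directions against Hep. Of 12 cofactor genes, 6, 5 and 6 were higher than in MEF in iHep_Foxa1, iHep_Foxa2 and iHep_Foxa3 and none lower, where 20.0%, 15.3% and 22.9% of all genes were higher and 19.9%, 15.5% and 23.7% lower. Against Hep, 3, 2 and 2 were higher and 5, 6 and 5 lower, where 35.3%, 35.2% and 35.3% of all genes were higher and 24.8%, 25.4% and 26.7% lower. Gclc, the catalytic subunit of the rate-limiting enzyme of glutathione synthesis, averaged 1500 ± 815, 1700 ± 858 and 828 ± 398 CPM in the iHep groups, against 354 ± 25.9 CPM in Hep and 31.5 ± 7.03 CPM in MEF. It was higher than in MEF in each (5.57 ± 0.74, 5.76 ± 0.76 and 4.72 ± 0.71), and above Hep in iHep_Foxa1 and iHep_Foxa2 (2.08 ± 0.59 and 2.26 ± 0.62) while iHep_Foxa3 missed the threshold (1.23 ± 0.56, adjusted p = 0.063). Gclm, the modifier subunit of the same enzyme, averaged 41.0, 47.1 and 29.3 CPM in iHep, against 238 ± 5.07 CPM in Hep. Papss2, which makes the sulfate donor PAPS, averaged 37.9 ± 25.5, 27.8 ± 18.1 and 40.6 ± 16.9 CPM in iHep, against 730 ± 74.2 CPM in Hep and 41.3 ± 17.3 CPM in MEF. It was lower than in Hep (-4.27 ± 0.56, -4.72 ± 0.66 and -4.17 ± 0.56) and not called against MEF.

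Other detoxification enzymes were mostly called higher than in MEF and lower than in Hep. Of 17 such enzymes, 9, 9 and 10 were higher and 1 lower than in MEF in the 3 iHep groups. Against Hep, 10, 11 and 11 were lower, while Mgst3, of the same list, was higher in each iHep group. The percentages of all genes called in these comparisons are those given above for the cofactor genes. Ephx2, the soluble epoxide hydrolase, averaged 326 ± 95.3, 207 ± 62.9 and 540 ± 186 CPM in iHep, against 473 ± 68.1 CPM in Hep and 1.22 ± 0.163 CPM in MEF; it also rose at 48 h (3.32 ± 0.47, 3.40 ± 0.47 and 3.48 ± 0.47 over MEF). Gstz1, the zeta-class enzyme of tyrosine breakdown, averaged 25.7 ± 2.06, 26.7 ± 1.67 and 27.6 ± 5.68 CPM in iHep, against 1890 ± 139 CPM in Hep and 31.9 ± 0.988 CPM in MEF. Of 10 tested export and processing genes, 2 were higher and 3 lower than in MEF in each iHep group, near the shares of all genes. Abcc2, the canalicular exporter of conjugates, averaged 0.159, 0.051 and 0.0386 CPM in iHep, against 421 ± 46.0 CPM in Hep (-11.35 ± 1.0, -12.91 ± 1.30 and -13.23 ± 1.10). Abcc4, a basolateral exporter, averaged 103 ± 28.6, 84.5 ± 36.8 and 147 ± 79.2 CPM in iHep, against 7.77 ± 0.779 CPM in Hep and 13.2 ± 4.35 CPM in MEF. Abcc1 averaged 81.7 ± 30.9, 119 ± 16.3 and 72.4 ± 15.5 CPM in iHep, against 1.10 ± 1.03 CPM in Hep and 106 ± 16 CPM in MEF.

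Of 12 receptors and transcription factors known to control these genes, 10, 9 and 9 were lower than in Hep in iHep_Foxa1, iHep_Foxa2 and iHep_Foxa3, where 24.8%, 25.4% and 26.7% of all genes were. Nr1i2 (PXR), a xenobiotic receptor, averaged 21.0 ± 17.9, 6.55 ± 4.44 and 17.4 ± 11.6 CPM in iHep, against 221 ± 7.04 CPM in Hep and 0.119 ± 0.0343 CPM in MEF. It was higher than in MEF (7.41 ± 1.18, 5.73 ± 1.15 and 7.14 ± 1.18) and lower than in Hep. Nr1i3 (CAR), the other main xenobiotic receptor, averaged 0.482 ± 0.454, 0.314 ± 0.376 and 0.596 ± 0.338 CPM in iHep, against 172 ± 28.6 CPM in Hep. Hnf4a, which the viruses carried, averaged 367 ± 193, 189 ± 124 and 865 ± 340 CPM in iHep, against 1010 ± 91.8 CPM in Hep; delivered and endogenous Hnf4a cannot be told apart in these counts. Of 8 genes taken as targets of Nfe2l2, the factor of the antioxidant response, 2 were higher than in MEF in each iHep group (Gclc and G6pdx) and 0, 0 and 1 lower, where 20.0%, 15.3% and 22.9% of all genes were higher. Their median log2 fold change over MEF was 0.05, 0.49 and -0.31 in the 3 groups, beside 0.08, 0.06 and 0.05 over all genes.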

How the data were processed

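Poly(A) RNA libraries of the 28 samples were made with a stranded mRNA kit, per the labels' protocols. The authors' deposited files list 30710 transcripts and hold, per the file headers, expected counts, FPKM and the fraction of reads on each. BWA 0.7.12 and the build mm9 are named per the submitters' processing notes; which quantifier made the tables, and how it was set, is not given in the sources used here. At most 7 deposited expected counts per file were not whole. RefSeq named 30190 transcripts and GENCODE 181; the other 339, with 0.609% to 3.208% of a library's reads, stayed unnamed but inside library sizes. Build and reference differ, so positions are given only for the printed RefSeq promoters.

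Expected counts were summed per gene, rounded, filtered with filterByExpr, scaled by TMM and fitted with edgeR 4.0.16 in R 4.3.3 (glmQLFit, robust, 1 coefficient for each of 9 groups, 19 residual degrees of freedom). The 17 comparisons were tested 2-sided, with p-values adjusted over all tested genes and called under 0.05 with no minimum fold. CPM use TMM-scaled library sizes, and the standard error of a log2 fold change is its size over the square root of F. The script was tested on simulated data. A group without counts was given a floor of 3 counts for a bound on its fold. Alternatives used DESeq2 1.42.0, limma 3.58.1 on log2(FPKM + 1), no filter, summed copies, the compared groups alone, library sets by Rn7sk at 10 CPM, a replicate block and leaving out libraries.

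Named members are up to 6 a family with the highest group mean, up to 4 called rises and falls a comparison without overlap, and all called between iHep groups; pathway genes are up to 3 a list by p and by level. Members and lists were chosen with earlier results of these data known. Genes matching Acy3 and Sts were not analysed here.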

Additional observations from a re-analysis of the deposited data

Results flagged for a closer look

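A single library stood far from the rest of its group, by the gap between it and its nearest neighbour, in 7 of 87 groups of 4 to 6 libraries examined on log2(CPM + 1); chance gives about 1 in 20. In iHep_Foxa3 these were Gsta1 in replicate 6 at 550 CPM (high), Gstm4 in replicate 2 at 2.45 CPM (low), Gstm5 in replicate 1 at 13.9 CPM (low) and Sult1a1 in replicate 1 at 28 CPM (low). In iHep_Foxa1 they were Gstp1 and Gstp2, which share reads, in replicate 6 at 389 and 184 CPM (high) and Sult1b1 in replicate 1 at 7.46 CPM (high). Replicate 1 of iHep_Foxa3 is the only library of that group low in Rn7sk; the part of the library set in these values was not tested for single libraries.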

How the results depend on the processing

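Where near-identical copies were summed, which leaves fewer genes to count, the members called came to 31 in Hep against MEF, 31, 32 and 33 in iHep_Foxa1, iHep_Foxa2 and iHep_Foxa3 against Hep, and 10 in iHep_Foxa2 against iHep_Foxa3. With the compared groups alone the count was 9, 10 and 9 in 48h_Foxa1, 48h_Foxa2 and 48h_Foxa3 against MEF, 10 in iHep_Foxa1 against 48h_Foxa1, 0 in iHep_Foxa1 against iHep_Foxa2 and against iHep_Foxa3, and 25 in del2 against 48h_Foxa3. With a term for the library set it was 1 and 1 in 48h_Foxa1 and 48h_Foxa2 against MEF, 0 in iHep_Foxa1 against iHep_Foxa3, 2 in iHep_Foxa2 against iHep_Foxa3 and 8 in del2. Libraries of the set high in Rn7sk alone gave 22 in iHep_Foxa3 against 48h_Foxa3, and those of the low set alone 0 in iHep_Foxa1 against iHep_Foxa2. Limma gave 4 and 5 in 48h_Foxa1 and 48h_Foxa2 against MEF, 5 and 1 in iHep_Foxa1 against iHep_Foxa2 and iHep_Foxa3, and 2 in del2. DESeq2 gave 6 in iHep_Foxa1 against iHep_Foxa3 and 3 in del2, and no filter gave 1 in 48h_Foxa1 against MEF. The cause of these changes was not tested.

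Leaving out 1 library at a time gave 44 to 45 members called in Hep against MEF, 8 to 17, 7 to 14 and 9 to 17 in iHep_Foxa1, iHep_Foxa2 and iHep_Foxa3 against MEF, and 46 to 53, 46 to 51 and 47 to 52 against Hep. It gave 0 in each 48 h group against MEF, 7 to 17, 6 to 15 and 8 to 18 in iHep against 48 h, 0 to 14, 2 to 8 and 14 to 19 between iHep groups, and 0 to 1 in del2. An arm left with 1 library was assumed to vary like the other groups. Among single members, Gstp1 in iHep_Foxa3 against Hep turned to 0.05 in limma (adjusted p = 0.91), and Gstt2 in iHep_Foxa1 against iHep_Foxa2 to -1.54 in the low set alone (adjusted p = 0.51).

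Same-numbered libraries did not deviate together (correlations -0.21 to 0.34, and the best match had the same number in 2 of 4, 2 of 6 and 1 of 4 cases), so numbers were not taken to pair samples. A replicate block gave 49 members called in Hep against MEF and 2 in del2 against 48h_Foxa3, against 50 and 1 without it. Members under about 1 CPM rest on few reads at these depths.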

Other observations

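The microsomal glutathione transferases, membrane enzymes unrelated in sequence to the cytosolic classes, also went in opposite directions. Mgst1, the main microsomal form of liver, averaged 44.5 ± 20.2, 82.2 ± 48.9 and 54.9 ± 19.4 CPM in iHep_Foxa1, iHep_Foxa2 and iHep_Foxa3 (SD, n = 6, 4 and 6), against 2000 ± 359 CPM in Hep (n = 2), and its log2 fold change was -5.49 ± 0.42, -4.61 ± 0.47 and -5.19 ± 0.41. Mgst3, which reduces lipid peroxides, averaged 178 ± 97.9, 49.3 ± 27.3 and 132 ± 60.5 CPM in the same iHep groups, against 12.4 ± 8.75 CPM in Hep and 6.83 ± 2.73 CPM in MEF. It was higher than in Hep by 3.84 ± 0.76, 1.99 ± 0.70 and 3.41 ± 0.74 (adjusted p = 0.00015, 0.017 and 0.00037; edgeR).

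Slc7a11, the cystine importer that feeds glutathione synthesis, averaged 45.4 ± 42.9, 97.8 ± 149 and 97.0 ± 55.9 CPM in iHep_Foxa1, iHep_Foxa2 and iHep_Foxa3, against 0.247 ± 0.00299 CPM in Hep and 23.2 ± 9.55 CPM in MEF. It was higher than in Hep in each iHep group (7.50 ± 1.63, 8.61 ± 1.69 and 8.59 ± 1.67) and was called in none against MEF (adjusted p = 0.43, 0.14 and 0.097). Abcc3, a basolateral exporter of glucuronides, averaged 93.3 ± 90.3, 229 ± 112 and 64.8 ± 28.4 CPM in iHep, against 742 ± 152 CPM in Hep and 3.46 ± 0.896 CPM in MEF, between those groups in mean level.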
